A study of Mus musculus with 20 samples.

Results

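The genes described here are 10 genes of capillary endothelium and blood vessel growth, followed in skeletal muscle of wild-type mice. They are the vessel growth factors Vegfa, Vegfb and Angpt1, the endothelial receptors Kdr, Flt1 and Tek, the endothelial junction genes Pecam1 and Cdh5, the vessel growth inhibitor Thbs1 and the oxygen-sensing regulator Hif1a. They were listed with earlier results of these data known and found by symbol among the 53465 gene identifiers of the deposited tables, and all 10 passed the filter on low counts that left 15709 genes for testing. Poly(A) RNA was sequenced in 20 libraries, all of wild-type genotype, with 5 from females and 5 from males without training and 5 from each sex after training. The labels call the tissue muscle and name neither which muscle, the age of the mice nor the form of training. They do not say whether each library is a different mouse, so the p-values below rest on the spread among libraries, which may be technical. The remaining samples of the series are not analysed here.

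Muscle fibres, the contractile cells, lie among capillaries, and several of these genes form signalling pairs across that border. VEGF-A, made by fibres among other cells, binds the receptors that Kdr (VEGFR2) and Flt1 (VEGFR1) encode on endothelial cells. VEGFR2 is the main receptor that drives endothelial growth and migration, and VEGFR1 binds VEGF-A tightly with weak signalling and also binds VEGF-B. Angiopoietin-1, the product of Angpt1, is made largely by cells around vessels and by mesenchymal cells, and it activates Tie2, the receptor encoded by Tek, which keeps vessels stable. PECAM-1 and VE-cadherin, encoded by Pecam1 and Cdh5, hold endothelial cells together. Thrombospondin-1, encoded by Thbs1, restrains vessel growth, and HIF-1 alpha, encoded by Hif1a, is held low by oxygen at the level of the protein and raises Vegfa transcription when oxygen falls. Exercise is a known stimulus of Vegfa and of capillary growth in muscle. In bulk tissue, fewer cells of a type and less RNA per cell cannot be told apart.

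The 3 endothelial receptor genes differ in the sequence just before their start sites, which is shown because these receptors are set against endothelial content below. The windows are the 250 bases before the RefSeq start site (GRCm38.p6), written 5′ to 3′ on the gene's strand. Matches to AGGAAG or its reverse complement, a form of the site bound by ETS factors of endothelial cells, are in capitals. Flt1 lies at chr5:147726012-147726261 on the minus strand, Kdr at chr5:75978456-75978705 on the minus strand and Tek at chr4:94739039-94739288 on the plus strand.
Flt1: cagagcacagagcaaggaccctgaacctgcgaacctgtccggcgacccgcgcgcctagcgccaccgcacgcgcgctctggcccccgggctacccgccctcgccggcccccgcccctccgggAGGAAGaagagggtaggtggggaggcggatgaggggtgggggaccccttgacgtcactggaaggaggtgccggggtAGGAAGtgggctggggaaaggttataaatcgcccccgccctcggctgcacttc
Kdr: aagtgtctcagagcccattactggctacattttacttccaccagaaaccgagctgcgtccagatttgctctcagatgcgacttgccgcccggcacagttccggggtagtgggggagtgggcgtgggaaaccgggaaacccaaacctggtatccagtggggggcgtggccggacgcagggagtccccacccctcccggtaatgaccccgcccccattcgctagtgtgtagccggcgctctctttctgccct
Tek: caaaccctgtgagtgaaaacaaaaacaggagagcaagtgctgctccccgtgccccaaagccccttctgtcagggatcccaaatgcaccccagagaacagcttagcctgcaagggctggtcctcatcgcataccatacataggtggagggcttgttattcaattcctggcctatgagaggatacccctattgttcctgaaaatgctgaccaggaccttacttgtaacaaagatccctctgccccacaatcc
The Flt1 window held 2 matches, 129 and 53 bases before the start site, and the Kdr and Tek windows held 0. Of 32851 mouse promoter windows of this length, 29.5% held at least 1 match. A match describes the letters only. Shorter and other forms of the site were not searched for, so a window with 0 matches can still hold one. RefSeq entries were found for 6 of the 10 genes.

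Library totals ran from 22043145 to 38483572 counts. Non-trained female library 1 stood apart, with the highest total and the fewest genes above 0 (18727, against 19806 to 21449 in the others). Endothelial content was followed with an endothelial score, the mean log2 CPM (read counts scaled to a common library size) of 20 other endothelial genes such as Cldn5, Erg and Emcn, all of which passed the filter. None of the 10 genes described here is among them. The score was 3.59 ± 0.22 in non-trained females, 3.76 ± 0.18 in trained females, 3.70 ± 0.087 in non-trained males and 3.73 ± 0.18 in trained males (SD, n = 5 each). Its lowest value, 3.27, was that of non-trained female library 1, and its highest, 4.03, that of trained female library 2. None of the 20 score genes passed the test in any of the comparisons between groups. Their median log2 difference was 0.14 with training in females, 0.0032 with training in males and 0.091 between the sexes without training, against 0.0035, -0.00022 and 0.0045 over all genes tested.

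Per transcript length, Vegfa and Vegfb made up the upper end and Angpt1 and Thbs1 the lower end. The deposited TPM, which divides counts by transcript length and library size, is the scale on which genes can be set beside each other. Vegfa stood at 126.5 ± 30.4 TPM (SD, n = 20; 74.8 to 184.7) and Vegfb at 97.4 ± 16.4 TPM (76.1 to 147.3), and Vegfa was the higher of the pair in 17 of 20 libraries. The lowest Vegfb value lay above the highest value of Pecam1, the next gene (31.1 ± 5.59 TPM, 22.4 to 41.7). Cdh5 followed at 27.3 ± 4.29 TPM and was below Pecam1 in 17 of 20 libraries. The VEGF receptors lay lower still, Flt1 at 16.6 ± 3.16 TPM and Kdr at 13.1 ± 2.82 TPM, in that order in 18 of 20 libraries. Hif1a stood at 8.84 ± 1.51 TPM, Tek at 7.89 ± 1.35 TPM, Angpt1 at 6.16 ± 1.84 TPM and Thbs1 at 5.28 ± 2.31 TPM. These 4 genes overlapped, and each neighbouring pair among them kept its order in 15 or 16 of the 20 libraries. For scale, other ligands on the same TPM scale were Angpt2, the antagonist of Angpt1 at Tie2, at 1.46 TPM, Pgf at 0.951 TPM and Vegfc at 1.20 TPM. Epas1, which encodes the endothelium-rich HIF-2 alpha, stood at 45.2 TPM, and the Hif1a level was 0.197 of it on average.

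**Figure D1:**
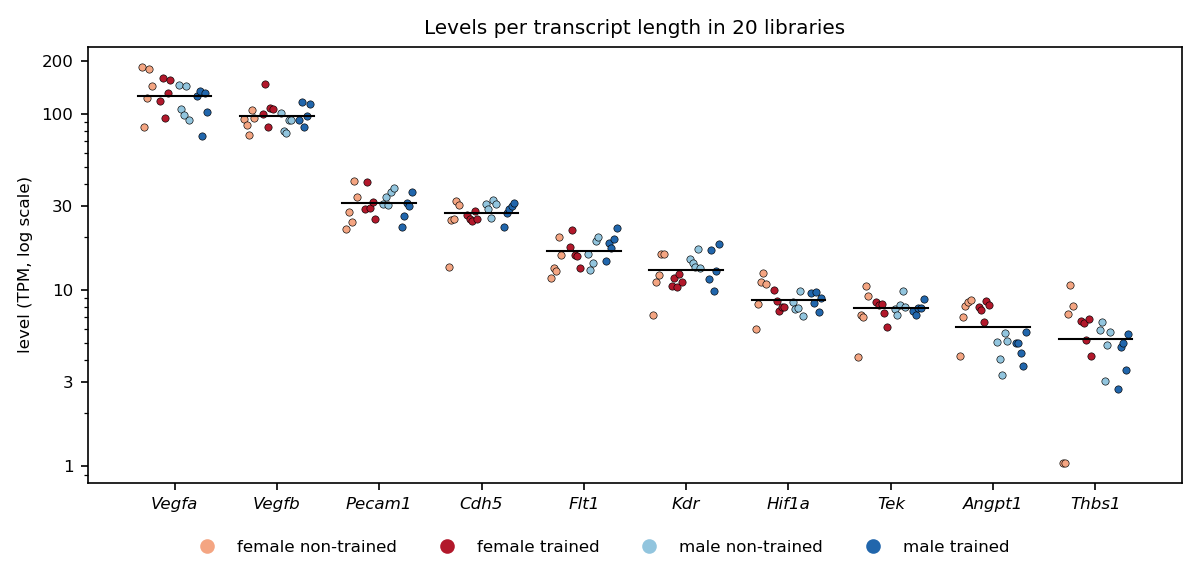
Levels of the 10 genes in TPM (log axis), 1 point per library, coloured by group, with the genes ordered by their mean over the 20 libraries. Vegfa and Vegfb lie at 74.8 TPM or above in every library, and the lowest 4 genes overlap.

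Training changed none of the 10 genes past the threshold in either sex. In edgeR's quasi-likelihood test with Benjamini-Hochberg adjustment over all genes, 0 of the 10 passed an adjusted p of 0.05 in females or in males, and 0% of the 15709 genes were called in either sex (1347 genes had an unadjusted p under 0.05 in females and 676 in males). DESeq2 and limma-voom also called 0 of the 10 in each sex. For the mean of both sexes 0 of the 10 passed, beside 0.0127% of all genes, and for the training by sex interaction 0 of the 10 passed, beside 0%. The training comparisons and the sex comparisons below share libraries.

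Vegfa, on chromosome 17 (46016993 to 46032369, minus strand; gene positions are GRCm38 from GENCODE M21), had no training difference past the threshold. Its levels were 307.6, 131.3, 172.1, 267.9 and 191.4 CPM in non-trained females and 186.4, 239.7, 146.5, 185.6 and 221.7 CPM in trained females. Non-trained male libraries stood at 202.6, 148, 143, 193.8 and 116 CPM, and trained male libraries at 173.4, 198.1, 94.9, 193.8 and 154.1 CPM. The groups overlapped throughout, and non-trained female libraries 1 and 4 were the highest of the 20. The log2 difference with training was -0.13 in females (95% interval -0.61 to 0.36; adjusted p = 0.93 by edgeR) and 0.020 in males (-0.46 to 0.50; adjusted p = 1). Males lay below females by a log2 difference of -0.41 without training (-0.90 to 0.070; adjusted p = 0.30) and -0.27 with it (-0.75 to 0.22; adjusted p = 0.56), neither past the threshold.

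Vegfb, on chromosome 19 (6982473 to 6987651, minus strand), is linked to fatty acid handling by endothelium more than to sprouting. It gave the highest training value of the 10 genes in each sex, also short of the threshold. In females without training it was at 78.0, 69.8, 56.0, 78.0 and 67.8 CPM, and after training at 82.2, 115.7, 70.0, 81.8 and 84.6 CPM. In males it stood at 78.7, 59.3, 59.2, 65.7 and 64.3 CPM without training and at 70.8, 89.5, 58.7, 77.1 and 84.8 CPM with it. Trained libraries reached higher, with trained female library 2 the highest, but the groups overlapped in both sexes. The log2 difference was 0.31 in females (SE 0.13, interval 0.037 to 0.59; adjusted p = 0.52 by edgeR) and 0.22 in males (interval -0.056 to 0.50; adjusted p = 0.99). The mean of both was 0.27 (SE 0.092; adjusted p = 0.39 by edgeR). The ratio of Vegfa to Vegfb in TPM averaged 1.56 ± 0.36 in non-trained and 1.21 ± 0.15 in trained females, and 1.32 ± 0.21 and 1.13 ± 0.23 in non-trained and trained males (SD, n = 5 each), with overlap in each sex.

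**Figure D2:**
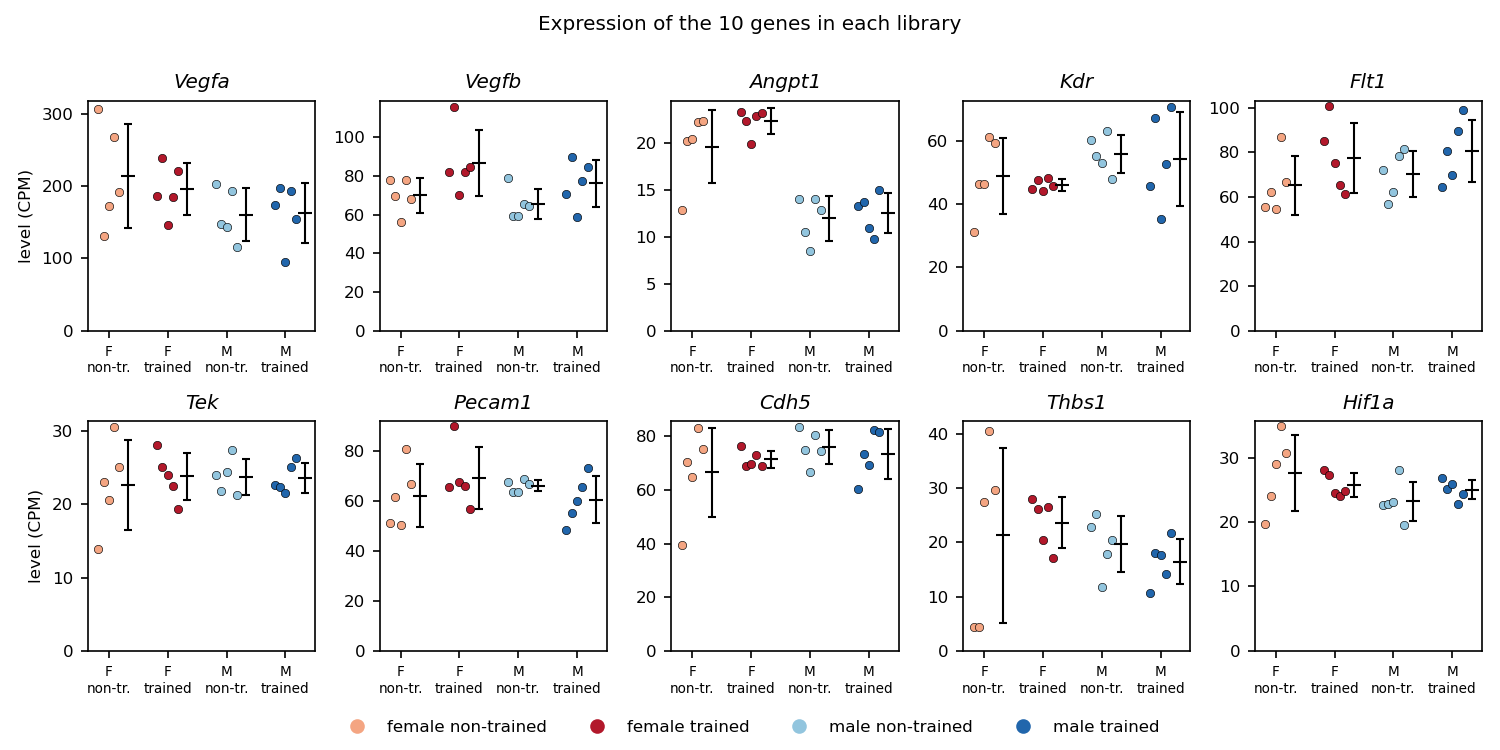
Levels of each of the 10 genes in CPM, 1 point per library in 4 columns for the groups, with a bar at the group mean. The Angpt1 panel shows female libraries near 20 CPM and above, except non-trained library 1 at 12.9 CPM, over male libraries at 15 CPM and below, and the other panels show overlapping groups.

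The VEGF receptors overlapped between the groups. Kdr (chromosome 5, 75932827 to 75978458, minus strand) stood at 31.2, 46.3, 46.4, 61.3 and 59.3 CPM in the females without training and at 44.8, 47.6, 44.1, 48.2 and 45.7 CPM in those with it. In males it stood at 60.5, 55.1, 53.0, 63.1 and 48.0 CPM without training and at 45.8, 67.4, 35.2, 52.6 and 70.7 CPM with it. The trained females were close together (SD 1.76 CPM) and inside the range of the non-trained females (SD 12.1 CPM). The log2 difference with training was -0.084 in females (interval -0.45 to 0.28; adjusted p = 0.94 by edgeR) and -0.041 in males (-0.40 to 0.32; adjusted p = 1).

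Flt1, on the same chromosome (147561604 to 147726011, minus strand), stood at 55.6, 62.5, 54.5, 87.0 and 66.5 CPM in females without training, and at 85.1, 100.7, 75.5, 65.3 and 61.5 CPM with it. The male values were 72.0, 56.9, 62.3, 78.5 and 81.6 CPM without training and 64.7, 80.6, 69.8, 89.5 and 99.1 CPM with it. The highest library of each sex was a trained one, and the groups overlapped. Its log2 difference with training was 0.25 in females (interval -0.072 to 0.58; adjusted p = 0.69 by edgeR), 0.20 in males (-0.12 to 0.52; adjusted p = 0.99) and 0.23 for the mean of both (-0.0027 to 0.46; adjusted p = 0.54). Kdr relative to Flt1 in TPM was 0.84 ± 0.15 and 0.68 ± 0.13 in non-trained and trained females and 0.91 ± 0.16 and 0.75 ± 0.14 in non-trained and trained males (SD, n = 5 each), overlapping in each sex.

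Tek (chromosome 4, 94739289 to 94874976, plus strand) was the steadiest of the receptors in group means, from 22.7 CPM in non-trained females to 23.8 CPM in trained females. Its libraries ran from 13.9 to 30.5 CPM, both ends being non-trained females (libraries 1 and 4). Its log2 differences were 0.077 with training in females (interval -0.23 to 0.38), -0.011 with training in males (-0.32 to 0.30), 0.074 between non-trained males and females and -0.014 between trained ones, none past the threshold. Of 15 other receptor genes tested, among them Tie1, Nrp1, Ephb4 and Notch1, 0 passed in any of the comparisons between groups. In females 13 of the 15 (86.7%) had training values above 0, with a median of 0.19, against 50.9% of all genes, and in males 10 of the 15 with a median of 0.024. Non-trained female library 1 had the lowest mean of this list, 2.82 log2 CPM against 3.48 to 3.83 in the rest of its group, and its part in the female values was not tested. The smallest p in that list were those of Ephb4 (log2 difference 0.39, adjusted p = 0.49), Notch4 (0.45, adjusted p = 0.50) and Notch1 (0.45, adjusted p = 0.55).

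The junction genes passed in none of the comparisons between groups. Pecam1 (chromosome 11, 106654217 to 106750628, minus strand) averaged 62.1 ± 12.5 CPM in females without training and 69.1 ± 12.3 CPM with it, and 66.0 ± 2.29 and 60.4 ± 9.48 CPM in the male groups in that order (SD, n = 5 each). Training values were 0.16 in females (interval -0.12 to 0.43) and -0.13 in males (-0.40 to 0.15). Cdh5 (chromosome 8, 104101625 to 104144511, plus strand) averaged 66.6 ± 16.6 and 71.4 ± 3.12 CPM in non-trained and trained females and 76.0 ± 6.43 and 73.4 ± 9.19 CPM in non-trained and trained males. Non-trained female library 1, at 39.3 CPM, was the lowest Cdh5 library, and the other 19 lay between 60.3 and 83.4 CPM. The Cdh5 training values were 0.10 in females (interval -0.18 to 0.39) and -0.050 in males (-0.34 to 0.24).

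Lists of vessel segments gave no called gene with training either. Of 12 capillary genes, 0 passed in females, 10 had values above 0 (83.3%, against 50.9% of all genes) and the median log2 difference was 0.22. The smallest p there were those of Timp4 (0.72, adjusted p = 0.43 by edgeR), Plvap (0.47, adjusted p = 0.50), a protein of capillary openings, and Car4 (0.52, adjusted p = 0.53), a carbonic anhydrase on the capillary surface. Of 8 venous genes 0 passed, with a median of 0.45 and the smallest p for Selp (1.75, adjusted p = 0.49), an adhesion molecule for white blood cells. Trained female library 2 had a venous list mean of 4.27 log2 CPM, above the 3.21 to 3.44 of the rest of its group, and also the highest erythroid list mean of the females (5.61 log2 CPM). Lists of other cell types had larger medians in this comparison, 0.98 for 8 Schwann cell genes, all with values above 0, and 0.87 for 8 adipocyte genes, with 0 called in each. The part of tissue composition in these values was not tested. Of 8 arterial, 6 lymphatic and 11 pericyte and smooth muscle genes, 0 passed in females. In males the capillary median was -0.0020, the venous median 0.029 and 0 genes passed in these 5 lists. Lists of other cell types had larger medians in males too, with 0 genes called in each. The median was 0.95 for 8 slow muscle fibre genes, with 8 values above 0. It was -2.08 for 6 erythroid genes and -0.52 for 8 Schwann cell genes, with 0 values above 0 in each. The part of these components in the male training values was not tested. The capillary and venous medians of the training by sex interaction were -0.20 and -0.35, with 0 genes called. Of the 8 genes of tip cells (the leading cells of a vessel sprout) and of dividing cells, 7 were tested and 0 passed in either sex.

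**Figure D3:**
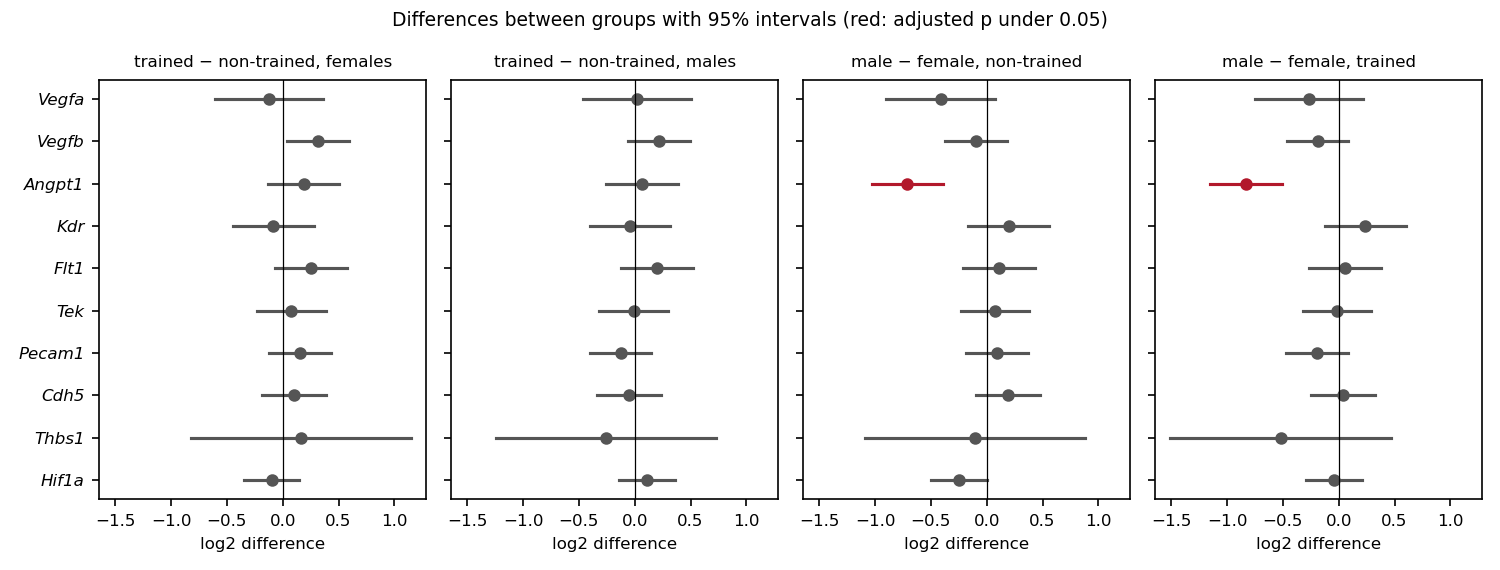
Log2 differences of the 10 genes with 95% intervals for training in each sex (trained minus non-trained) and for sex in each training state (male minus female), with adjusted p under 0.05 in red. The red points are those of Angpt1 in both sex comparisons, at -0.71 and -0.83.

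Angpt1, the ligand of Tie2 (chromosome 15, 42424723 to 42676977, minus strand), was lower in males in both training states and was the 1 gene of the 10 that passed in a comparison between groups. It stood at 12.9, 20.3, 20.5, 22.3 and 22.4 CPM in females without training, and at 23.4, 22.4, 19.95, 22.9 and 23.2 CPM with it. Male libraries stood at 14.0, 10.6, 8.48, 14.0 and 12.9 CPM without training and at 13.3, 13.7, 10.9, 9.77 and 15 CPM with it. In trained mice every female library lay above every male library. Without training, 4 of the 5 female libraries lay above all males and library 1 lay among them. How many of all genes separate the sexes in this way was not counted, here or in the comparisons below. The log2 difference (male minus female) was -0.71 without training (SE 0.15, interval -1.03 to -0.39; adjusted p = 0.0091 by edgeR) and -0.83 with training (SE 0.15, interval -1.15 to -0.51; adjusted p = 0.0028). Over all genes, 5.21% were called between the sexes without training (325 of 818 lower in males) and 5.6% with training (348 of 880 lower in males). Without non-trained female library 1 the non-trained difference was -0.84 (adjusted p = 0.00091). Training left Angpt1 within the spread, with log2 differences of 0.19 in females (interval -0.13 to 0.51) and 0.065 in males (-0.26 to 0.39), and the 2 sex differences were not distinguished from each other (interaction -0.12, interval -0.58 to 0.33; adjusted p = 1).

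Its receptor gene Tek was not called in either training state, and the TPM ratio of Tek to Angpt1 was 1.04 ± 0.13 and 0.998 ± 0.20 in non-trained and trained females and 1.82 ± 0.39 and 1.69 ± 0.28 in non-trained and trained males (SD, n = 5 each). The lowest male ratio was 1.45 and the highest female ratio 1.25, so that no male library overlapped a female one. The sex difference in Angpt1 was also present relative to endothelial content, with the endothelial score taken as an offset in the fit. Angpt1 minus the score, in log2 units, was 0.69 ± 0.17 and 0.72 ± 0.18 in non-trained and trained females and -0.14 ± 0.28 and -0.090 ± 0.29 in non-trained and trained males. On this scale the lowest female library of either group (0.42) lay above the highest male library (0.25). The fitted difference was -0.82 without training (interval -1.14 to -0.49; adjusted p = 0.0028 by edgeR) and -0.80 with it (-1.12 to -0.48; adjusted p = 0.0039), beside 2.44% and 2.04% of all genes called on this scale.

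Other tissue components differed between the sexes in the same libraries. The slow fibre list mean, over 8 slow muscle fibre genes such as Myh7 and Tnnc1, was lower in males by 2.44 log2 units without training and 1.40 with it, with 6 of 8 genes called lower without training (Myh7, Tnnc1, Tnni1, Tnnt1, Myl2 and Tpm3) and 1 of 8 with it (Myl2). The macrophage list mean was higher in males by 1.51 and 1.58, with 5 of 10 genes called higher without training (Cd163, Lyz2, Csf1r, Cd68 and C1qb) and 7 of 10 with it (Lyz2, Csf1r, Cd68, Adgre1, Mrc1, Cx3cr1 and Fcgr1). Of the other lists of tissue components, Car3, listed with adipocytes and also expressed by slow fibres, was lower in males (log2 difference -1.13 and -1.38). The adipocyte list as a whole had a median of 0.45 without training, with 5 of 8 values above 0. With training its median was -0.60, with 0 of 8 above 0. Hba-a1 and Alas2 of 6 erythroid genes were higher in non-trained males (1.92 and 2.28). Erythroid list means of that group were highest in libraries 4 and 2 (7.65 and 5.86 log2 CPM). The rest of the group lay at 3.46 to 4.55, inside the 3.30 to 4.80 of non-trained females. Cldn19 of 8 Schwann cell genes was lower in trained males (-1.44). In that state 0 of the 8 Schwann cell values lay above 0, with a median of -0.91. Without training 8 of 8 lay above 0, with a median of 0.49. Of the fast fibre and the fibro-adipogenic and tendon genes, 0 were called. The summed level of the 10 macrophage genes ran from 42.7 to 124.1 CPM in non-trained females, 66.4 to 136.1 CPM in trained females, 144.4 to 338.7 CPM in non-trained males and 115.7 to 670.2 CPM in trained males, and none was at 0 in any library. The summed level of the 8 slow fibre genes ran from 1181 to 4942 CPM, 496 to 6214 CPM, 354.6 to 1615 CPM and 744 to 2015 CPM in the same order. With the slow fibre mean as a covariate, an alternative chosen after seeing the data, the Angpt1 difference was -0.47 without training (adjusted p = 0.31 by edgeR, with 111 genes called in all) and -0.69 with it (adjusted p = 0.025). With the macrophage mean as a covariate, also chosen after seeing the data, it was -0.91 (adjusted p = 0.025) and -1.05 (adjusted p = 0.011). Since these components went with sex in the same libraries, their part in the Angpt1 difference and that of sex cannot be told apart here.

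**Figure D4:**
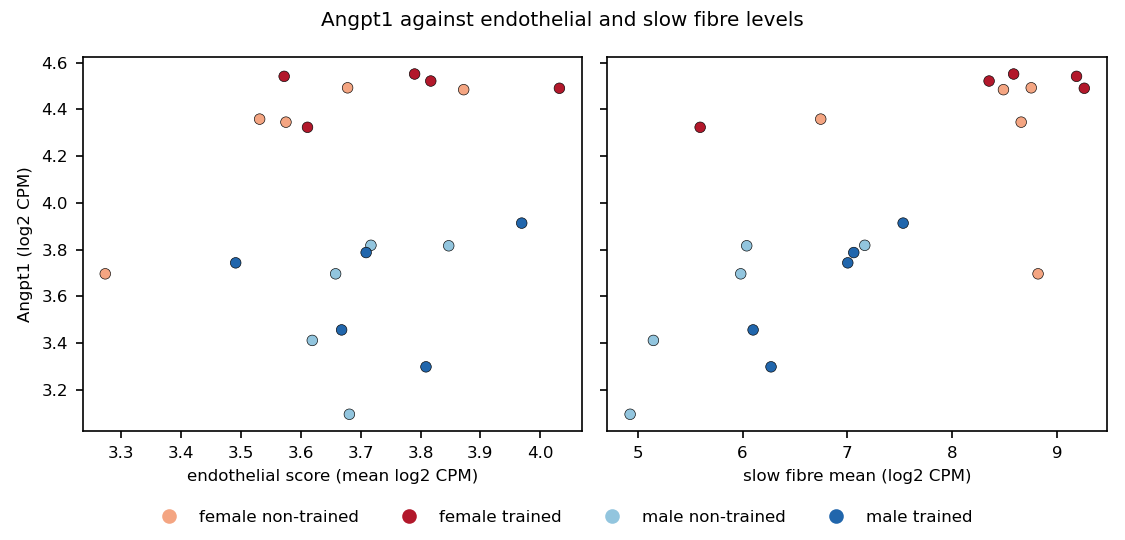
Angpt1 level (log2 CPM) of each library against its endothelial score and against its slow fibre list mean (both log2 CPM), coloured by group. The endothelial scores of the sexes overlap, and the slow fibre means of males (4.93 to 7.53) lie below those of most females (5.60 to 9.26).

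Among 15 other ligand genes, of which 14 were tested, Fgf2, a growth factor for endothelium and many mesenchymal cells, was also lower in males. It averaged 21.2 ± 3.13 and 19.8 ± 1.79 CPM in non-trained and trained females and 14.7 ± 1.29 and 13.2 ± 2.64 CPM in non-trained and trained males (SD, n = 5 each). Fgf2 libraries of females lay at 17.6 CPM or above and those of males at 16.1 CPM or below. The log2 differences of Fgf2 were -0.53 (adjusted p = 0.015 by edgeR) and -0.59 (adjusted p = 0.0074). Jag1, a Notch ligand, was higher in non-trained males (12.8 ± 1.92 against 9.15 ± 1.83 CPM; log2 difference 0.48, adjusted p = 0.038), and no other ligand of the list was called in either state. The ligand list had a median of 0.061 without training and 0.042 with it.

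Thbs1 (chromosome 2, 118111876 to 118127133, plus strand) was the most uneven of the 10 genes. It stood at 4.47, 4.32, 27.5, 40.5 and 29.6 CPM in non-trained females, at 28.0, 26.2, 20.4, 26.6 and 17.1 CPM in trained females, at 22.9, 25.2, 11.8, 17.9 and 20.5 CPM in non-trained males and at 10.7, 18.1, 17.7, 14.2 and 21.7 CPM in trained males. Non-trained females thus held both the lowest 2 libraries of all (libraries 1 and 2) and the highest. The same libraries 1 and 2 had the lowest means of a list of fibro-adipogenic and tendon genes, 2.76 and 4.48 log2 CPM against 4.86 to 6.13 in the others, and the part of that difference in the Thbs1 values was not tested. The log2 differences of Thbs1 were 0.16 with training in females (interval -0.82 to 1.15), -0.25 with training in males (-1.24 to 0.73), -0.11 between non-trained males and females and -0.52 between trained ones (-1.51 to 0.47), with adjusted p from 0.58 to 0.99 by edgeR. The width of these intervals is the widest of the 10 genes. Of 13 other inhibitor genes, 0 passed in any of the comparisons between groups. In females the smallest training p were those of Foxo1 (0.71, adjusted p = 0.50), a transcription factor that holds endothelium quiescent, Sema3f (0.30, adjusted p = 0.58) and Timp3 (0.36, adjusted p = 0.59).

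Hif1a (chromosome 12, 73901375 to 73947530, plus strand) changed with neither training nor sex past the threshold. Its libraries stood at 19.6, 24.1, 29.0, 34.9 and 30.7 CPM in non-trained females, 28.1, 27.3, 24.5, 24.1 and 24.9 CPM in trained females, 22.6, 22.7, 23.1, 28.1 and 19.5 CPM in non-trained males and 26.9, 25.1, 25.9, 22.9 and 24.4 CPM in trained males. Non-trained females again spanned the widest range, and all groups overlapped. The log2 difference between non-trained males and females was -0.25 (interval -0.50 to -0.0015; adjusted p = 0.22 by edgeR), and the trained one -0.041 (-0.29 to 0.21). Since HIF-1 alpha is set largely at the protein level, its mRNA is one readout and its target genes another. Of 18 target genes 0 passed with training in either sex, with the smallest p in females for Pgk1 (0.44, adjusted p = 0.34) and Ndrg1 (0.75, adjusted p = 0.37).

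Between the sexes, some targets were lower in males. Without training Pdk1, which turns pyruvate away from mitochondria, was lower (log2 difference -0.38, adjusted p = 0.020 by edgeR), as were P4ha1, a collagen prolyl hydroxylase (-0.45, adjusted p = 0.032), and Mxi1 (-0.23, adjusted p = 0.023), 3 of 18 in all with a list median of -0.074, beside 325 of all 15709 genes called lower. In trained mice 4 of 18 were lower, Pdk1 (-0.38, adjusted p = 0.021), the lactate dehydrogenase gene Ldha (-0.46, adjusted p = 0.044), Car9 (-1.39, adjusted p = 0.0073) and Mxi1 (-0.41, adjusted p = 0.00022), with a list median of -0.26, beside 348 of all 15709 genes called lower. None of the 18 was called higher in either state. Mxi1 averaged 57.3 ± 2.63 CPM in trained females against 43.1 ± 2.80 CPM in males of that state (SD, n = 5 each). Of the 10 genes of the HIF machinery, Egln3, an oxygen-sensing hydroxylase, was lower in non-trained males (-1.15, adjusted p = 0.048), and 0 passed in trained mice. Several of these targets are also genes of fibre metabolism, and the slow fibre means differed between the sexes as given above. Their part in these differences was not tested.

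Vessel genes other than the 10 differed between the sexes in single cases. Of 12 capillary genes, 20 score genes and 11 pericyte and smooth muscle genes, 0 passed in either training state. Gja4, a connexin of arterial endothelium, was higher in non-trained males (3.65 ± 0.36 against 2.54 ± 0.19 CPM, SD, n = 5 each; log2 difference 0.52, adjusted p = 0.039 by edgeR). Of 8 genes listed as venous, Apoe was higher in males (1.33, adjusted p = 0.0046, and 1.01, adjusted p = 0.022), a gene that macrophages also express, and Vcam1 was higher in trained males (0.62, adjusted p = 0.044). The venous list had a median of 0.29 without training, with 8 of 8 values above 0. With training its median was -0.10, with 3 of 8 above 0. Prox1, of the lymphatic list, was lower in non-trained males (-1.27, adjusted p = 0.032), while the median of its 6-gene list was 0.36. Prox1 is expressed by slow muscle fibres too.

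The relation of each gene to the endothelial score within the groups was then tested. The score was entered as a covariate beside the 4 groups, so that a slope of 1 means a change in proportion to the score. Pecam1 (slope 1.12, SE 0.16; adjusted p = 0.0087 by edgeR) and Flt1 (1.17, SE 0.22; adjusted p = 0.028) passed, 2 of the 10, beside 0.261% of all genes. That share is over all genes tested, the genes that make the score included. Both junction and receptor genes are endothelial like the score genes, so that slopes near 1 are a check of the score more than a result. Tek (1.09, SE 0.24; adjusted p = 0.055), Cdh5 (1.02, SE 0.23; adjusted p = 0.058) and Kdr (1.15, SE 0.30; adjusted p = 0.091) had like slopes short of the threshold. Deviations of these endothelial genes from their group means were also set beside those of the fibro-adipogenic and tendon list mean. Pearson's r was 0.769 for Cdh5, 0.648 for Tek, 0.575 for Kdr, 0.219 for Pecam1 and 0.156 for Flt1. With the score it was 0.752, 0.761, 0.685, 0.888 and 0.789 in that order. For Angpt1, Thbs1 and Hif1a, r was 0.667, 0.785 and 0.796 with the fibro-adipogenic and tendon mean, and 0.482, 0.6 and 0.488 with the score. For Vegfa and Vegfb it was -0.237 and -0.294 with that mean, and 0.136 and 0.499 with the score. The part of connective tissue in the slopes was not tested. Angpt1 had a slope of 0.71 (adjusted p = 0.33), Vegfb 0.61 (adjusted p = 0.29), Hif1a 0.55 (adjusted p = 0.34) and Vegfa 0.20 (SE 0.50; adjusted p = 0.90). The Thbs1 slope, 2.73 (SE 0.95; adjusted p = 0.22), was the highest and had the widest error. Differences between these slopes were not tested. With 1 library left out the slope ranged from 0.37 to 0.91 for Angpt1, from 0.38 to 1.02 for Vegfb, from 0.25 to 0.72 for Hif1a and from -0.067 to 0.999 for Vegfa, overlapping the 0.64 to 1.29 of Cdh5 and the 0.77 to 1.26 of Tek. Non-trained female library 1 set several of these ends, and without it the slopes were 0.37 for Angpt1, 1.02 for Vegfb, 0.25 for Hif1a, 0.999 for Vegfa, 0.64 for Cdh5 and 1.80 for Thbs1. The count of genes that passed ranged from 0 without non-trained female library 4 to 5 without trained female library 2, and was 1 without trained male library 1 or 5.

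**Figure D5:**
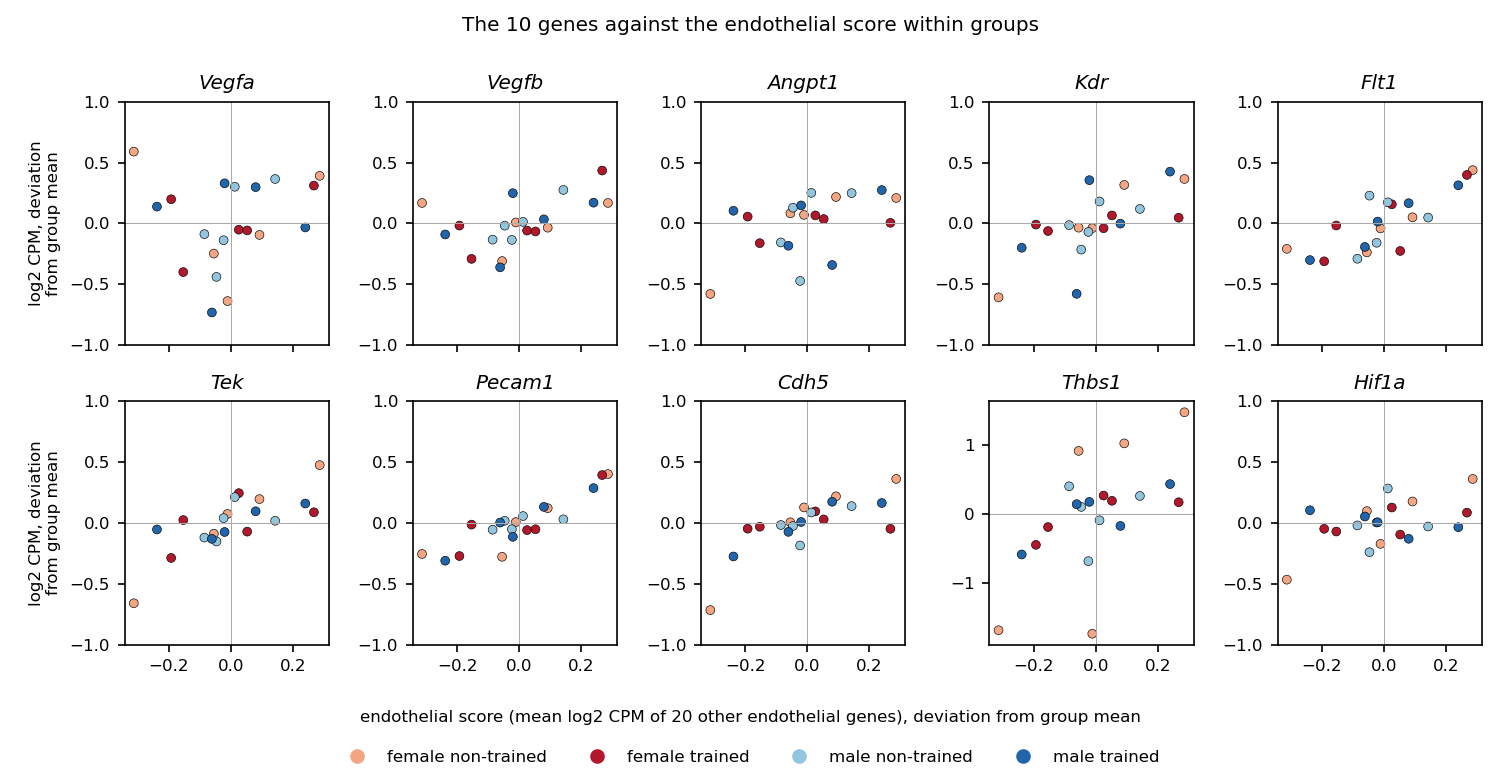
Deviation of each gene's log2 CPM from its group mean against the deviation of the endothelial score (log2 CPM), 1 point per library, coloured by group. The 5 endothelial genes slope upward, with fitted slopes from 1.02 to 1.17, and the fitted slope of Vegfa is 0.20.

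Set against endothelial content, none of the 10 genes passed for training. With the score as an offset, 0 of the 10 genes passed in females (0% of all genes, 1851 at an unadjusted p under 0.05 by edgeR) or in males (0%, 341 at an unadjusted p under 0.05). Vegfa minus the score, in log2 units, was 4.09 ± 0.57 and 3.83 ± 0.24 in non-trained and trained females and 3.59 ± 0.27 and 3.57 ± 0.46 in non-trained and trained males (SD, n = 5 each). Its fitted training difference on that scale was -0.34 in females (interval -0.84 to 0.16; adjusted p = 0.49) and 0.012 in males (-0.49 to 0.51; adjusted p = 1). Kdr on that scale gave -0.23 in females (-0.53 to 0.072; adjusted p = 0.46) and -0.079 in males (-0.38 to 0.22). Flt1 gave 0.076 (-0.19 to 0.34) and 0.16 (-0.10 to 0.43). Between non-trained males and females, Vegfa gave -0.57 (interval -1.07 to -0.072; adjusted p = 0.20) and Hif1a -0.35 (-0.63 to -0.066; adjusted p = 0.16), neither past the threshold, and in trained mice they gave -0.22 and 0.0056.

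For each of the 10 genes, the 3 genes most like it in their deviations from the group means were found. The measure is Pearson's r of log2 CPM deviations over these 20 libraries, which share tissue and depth differences, and it is given with no test. Flt1 was most like Fmo2 (r = 0.882), Adgrl4 (0.868), an endothelial adhesion receptor of the score list, and Pecam1 (0.864). Pecam1 was most like Fmo2 (0.914), Mmrn2 (0.901), also of the score list, and Flt1. Tek was most like Ripor1 (0.898), Pdzd2 (0.895) and Ptprb (0.879), the endothelial phosphatase of Tie2. Kdr was most like Hmcn2 (0.898), Notch3 (0.875) and Tcf4 (0.873), and Cdh5 most like App (0.940), Sh3bp4 (0.929) and Ccn2 (0.927). Among the genes most like Vegfb were Acadm (0.939) and Slc25a3 (0.934), where Acadm oxidises medium-chain fatty acids and Slc25a3 carries phosphate into mitochondria. Vegfa was most like the glutamine transporter gene Slc38a3 (0.892), Dot1l (0.872) and Plpbp (0.869). Angpt1 was most like Vopp1 (0.855), Ets1 (0.831), an ETS factor, and Islr2 (0.827). Thbs1 was most like Tmod3 (0.928), Lima1 (0.923) and Angptl7 (0.923), and Hif1a most like Slc7a1 (0.908), Pfkp (0.862) and Plagl2 (0.854).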

How the data were processed

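Each library has its own deposited table, made by the authors with RSEM, which gives expected counts per gene, TPM and an isoform-weighted transcript length, per the file headers. Tools in the submitters' processing notes are STAR 2.5.1 and RSEM 1.3.1 with Trim Galore and cutadapt, then limma and edgeR, with no role stated, and the build is GRCm38. The sources used here give no annotation release. Symbols were matched for 53274 of 53465 identifiers, and the rest held 0.0136% of the counts.

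Expected counts were rounded. Genes were kept by filterByExpr (minimum count 10), scaled by TMM and fitted in edgeR 4.0.16 (R 4.3.3) with robust quasi-likelihood and 1 coefficient per group over all 20 libraries. Calls used a Benjamini-Hochberg adjusted p of 0.05 over 15709 genes. SE is the log2 difference over the square root of F, and 95% intervals use 16 degrees of freedom. CPM uses TMM-scaled library sizes, and log2 CPM a prior count of 2. TPM, as deposited, served only for levels between genes. The endothelial score entered as an offset or as a covariate.

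The 10 genes and the 19 other gene lists (193 of 195 genes tested) were chosen with earlier results of these data known. Besides the 10 genes, up to 3 genes per list and comparison with the smallest p were named, every list gene past the threshold, and the 3 genes most like each of the 10 among those with a mean of at least 1 CPM, leaving out predicted genes, clone names and pseudogenes. A gene that this rule takes is not reported here. Alternatives were DESeq2 1.42.0, limma-voom (limma 3.58.1), RLE size factors, no TMM, no filter, a stricter filter, only the groups compared, other endothelial references, each library left out, and, added after seeing the data, slow fibre or macrophage means as covariates. The procedure was also run on simulated data that held no differences in tissue composition between libraries. The outcome of that run is not given here.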

Additional observations from a re-analysis of the deposited data

Results flagged for a closer look

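Angpt1 in non-trained female library 1 stood at 12.89 CPM, below the other 4 of its group, of which the nearest was at 20.25 CPM and the highest at 22.44 CPM, a gap of 0.77 of the group's range. That library also had the highest total count, the fewest genes above 0 and the lowest endothelial score. Angpt1 in trained female library 3 stood at 19.95 CPM, with the nearest of its group at 22.4 CPM and the highest at 23.38 CPM, a gap of 0.714 of the range. Gaps above 0.71 of the range in 5 samples were picked out. Of 44 sets of 5 libraries examined, the 10 genes and the endothelial score in each group, these 2 were picked out, and chance picks out about 1 in 20.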

How the results depend on the processing

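The call of Angpt1 between the sexes in trained mice held in all 29 alternatives (log2 difference -1.05 to -0.692, adjusted p 1.8e-05 to 0.025 over edgeR, DESeq2 and limma-voom fits), and the call in non-trained mice held in 28 of 29 (-0.913 to -0.472). The exception was the slow fibre mean as a covariate, under which 0 of the 10 genes were called in non-trained mice (Angpt1 -0.472, adjusted p = 0.31), and the cause was not tested. Relative to endothelial content the call held in 22 of 22 alternatives in each training state (-0.878 to -0.72 and -0.891 to -0.708). The count of genes called stayed at 0 for training in each sex, for the mean of sexes and for the interaction in every alternative run. The count of genes that went with the endothelial score, 2 of 10, ranged from 0 to 5 with 1 library left out. With Pecam1 and Cdh5 as the covariate, Flt1 still passed, and Kdr (1.01, adjusted p = 0.037 by edgeR) and Tek (1.03, adjusted p = 0.0051) passed as well.

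Of 1644 single gene values under alternatives, 64 changed sign, none of them past the threshold, the largest being 0.532. With limma-voom the Thbs1 difference between non-trained males and females was 0.532, and with no low-count filter the Tek training difference in males was 0.00731. Without TMM the Tek sex difference in trained mice was 0.0575. With the slow fibre covariate the sex differences of Vegfa and Vegfb were 0.0417 and 0.276 without training and 0.00728 and 0.0262 with it, and that of Tek with training was 0.0193. With the macrophage covariate those of Flt1, Tek and Pecam1 without training were -0.000682, -0.0512 and -0.0369, and those of Flt1 and Cdh5 with training -0.0537 and -0.0753. With Pecam1 and Cdh5 as the endothelial reference the relative Kdr training difference in males was 0.0493 and the Vegfa slope -0.0995. With the score as a covariate the relative Hif1a sex difference in trained mice was -0.0158.

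With 1 library left out, the values that changed sign ranged as follows. For training in females, Vegfa ranged from -0.272 to 0.0364, Tek from -0.0613 to 0.206, Cdh5 from -0.0416 to 0.194, Thbs1 from -0.108 to 0.53 and Kdr from -0.213 to 0.0102. For training in males, Vegfa ranged from -0.0673 to 0.167, Tek from -0.0535 to 0.0455, Angpt1 from -0.0336 to 0.142, Kdr from -0.154 to 0.0863 and Cdh5 from -0.0941 to 0.0134. For sex without training, Tek ranged from -0.066 to 0.202 and Thbs1 from -0.376 to 0.262, and for sex with training Tek from -0.0811 to 0.0537, Flt1 from -0.0284 to 0.168 and Cdh5 from -0.00521 to 0.102. Relative to endothelial content, training in males ranged from -0.0811 to 0.148 for Vegfa and from -0.18 to 0.0303 for Kdr, and sex in trained mice from -0.088 to 0.0707 for Hif1a. The Vegfa slope ranged from -0.0668 to 0.999.

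No paired analysis was possible because the labels give each library a number of its own and no number is shared between groups. Depth did not limit the detection of any of the 10 genes, which had counts in all 20 libraries, while 5 libraries per group limit the size of difference that can be called.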

Other observations

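The isoform-weighted transcript length, which moves with the mix of transcripts that RSEM assigns, varied little for Vegfb (1194 ± 5.0 bases, SD, n = 20), Kdr (5915 ± 10.2 bases) and Cdh5 (3986 ± 21.6 bases). It varied more for Hif1a (4356 ± 215 bases, from 3916 to 4578), Tek (4499 ± 130.8 bases, from 4057 to 4648), Angpt1 (4060 ± 109.3 bases, from 3815 to 4229) and Flt1 (6631 ± 94.1 bases, from 6289 to 6716). Flt1 is known to give a short secreted receptor that binds VEGF-A beside the full receptor. These lengths are estimates and no difference between groups was tested.

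For Hif1a, the 250 bases before the RefSeq start site (chr12:73907617-73907866) lie inside the gene as placed above. They held 3 matches to ACGTG on either strand, of which 2 overlap, while 16.6% of 32851 promoter windows held at least 1. ACGTG is a form of the core of the hypoxia response element, and other forms were not searched for. The Vegfb window and the first of the 2 Vegfa windows held 0 matches to ACGTG. The second Vegfa window, also inside its gene, held 1.

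With the slow fibre list mean as a covariate beside the 4 groups, Vegfb had a slope of 0.15 log2 units per log2 unit (SE 0.040; adjusted p = 0.20 by edgeR), Vegfa 0.19 (SE 0.080; adjusted p = 0.49) and Angpt1 0.10 (SE 0.055; adjusted p = 0.61), where 40 of all genes were called.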
